A study of Homo sapiens with 9 samples.

Results

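The forkhead genes encode transcription factors that share a winged-helix DNA-binding domain. The members were taken by name, as every row of the expression table whose symbol is FOX followed by a letter from A to S and a number, without FOXM1. This gave 43 of the 24069 rows, and none of them was a locus combined with another gene. Expression was measured by RNA sequencing in 9 libraries of the LC-2/ad cell line, derived from a human lung adenocarcinoma and carrying a CCDC6-RET fusion, as parental cells (LC2) and as its ponatinib-resistant derivatives PR1 and PR2, with 3 libraries (A, B and C) per group. Both derivatives were kept in 200 nM ponatinib, an inhibitor of several kinases including RET. The labels name no drug for LC2, and in comparisons with it the effects of resistance and of drug exposure cannot be told apart, whereas PR2 and PR1 share the drug. PR1 and PR2 are 1 derivative each, and the labels do not state whether they are clones or whether the letters are separate cultures, so every p-value measures library-to-library spread that may be technical. In bulk RNA, fewer cells expressing a gene and less RNA per cell cannot be told apart.

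Forkhead factors are grouped by letter. FOXA factors are pioneer factors that open chromatin and, with NKX2-1, switch on genes of the lung epithelium. FOXJ1 switches on the genes of motile cilia, FOXF factors act in lung mesenchyme downstream of hedgehog signals, FOXP factors repress transcription in the airway epithelium, and FOXO factors are held out of the nucleus when AKT is active, which links them to growth factor receptors. FOXK factors are broadly expressed repressors, and FOXE1 is best known as a thyroid factor.

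Values are FPKM, fragments counted per transcript length and library depth, so levels can be set side by side between genes. Differences are on the scale of log2(FPKM + 1), which understates the change of genes near 1 FPKM. The test covered the 12011 rows that reached 1 FPKM in 3 or more libraries. Changed means an adjusted p under 0.05 in limma over all of these rows. Relative depth, read from single-fragment steps of low rows, ran from 0.758 to 1, and read numbers are not given here. Across tested rows, libraries of a group correlated at 0.961 to 0.985 and libraries of different groups at 0.883 to 0.949. The epithelial markers EPCAM, KRT8, KRT19 and CDH1 stood at 54.5 FPKM or more in all 9 libraries and NKX2-1 at 51.9 or more. The other members of this list of 8 were KRT7, at 1205 or more, KRT18, at 2.34 to 8.17, and NAPSA, at 4.42 to 52.8. KRT18 fell in PR2 (log2 difference -0.82), and NAPSA rose in PR1 (1.85) and was lower in PR2 than in PR1 (-2.15). Of 10 fibroblast markers 2 were tested and the highest value was 10.04 FPKM (COL1A1), of 8 endothelial markers 1 was tested (KDR, at most 6.46), of 8 blood markers 1 (CD14, at most 9.0) and of 5 neuroendocrine markers none, with CHGA and INSM1 at 0 in all libraries. CD14 fell in PR1 and PR2 (log2 differences -1.55 and -1.86) and the fibroblast marker PDGFRA was lower in PR2 (-0.81), and their part in the forkhead results was not tested. PDGFRA reached 1 FPKM in parental libraries alone, so its difference was built into its being tested.

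Of the 43 forkhead genes 21 passed the filter and 22 did not. Changes in at least 1 comparison were found in 9 of the 21, and the other 12 passed in no comparison. The share of all tested rows that changed in at least 1 comparison was not counted, so the 9 cannot be set against it. FOXF2 and FOXJ1 are among the 9, and their calls were wholly or in part built into their being tested. In PR1 against parental cells 5 of 21 changed, where 15.5% of all tested rows did. FOXD1, FOXE1 and FOXP1 rose (7.56% of all tested rows did), and FOXF2 and FOXK2 fell (7.98%). FOXF2 reached 1 FPKM in the parental libraries alone and so had to differ once tested, and its call in each derivative is no support for these counts or for those of at least 1 log2 unit. In PR2 against parental cells 6 of 21 changed, against 23.4% of all tested rows, with FOXE1 and FOXN3 higher and FOXA1, FOXC1, FOXD1 and FOXF2 lower. In PR2 against PR1 7 of 21 differed, against 19.9% of all tested rows. FOXE1 and FOXK2 were higher in PR2, and FOXA1, FOXC1, FOXD1, FOXJ1 and FOXP1 were lower. FOXJ1 reached 1 FPKM in no PR2 library, so its call is no support for this count or for that of at least 1 log2 unit. The median log2 difference of the 21 was 0.14 in PR1 and -0.23 in PR2 against parental cells, beside 0.05 and 0.03 over all tested rows. It was -0.22 between PR2 and PR1, beside 0.00384 over all tested rows. Changes of at least 1 log2 unit were found in 3 of 21 members in PR1 (6.67% of all tested rows), in 5 in PR2 (9.52%) and in 5 between PR2 and PR1 (7.48%). FOXE1 and FOXD1 were the 2 members called in all 3 comparisons. Both comparisons with parental cells use the same parental libraries.

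**Figure D1:**
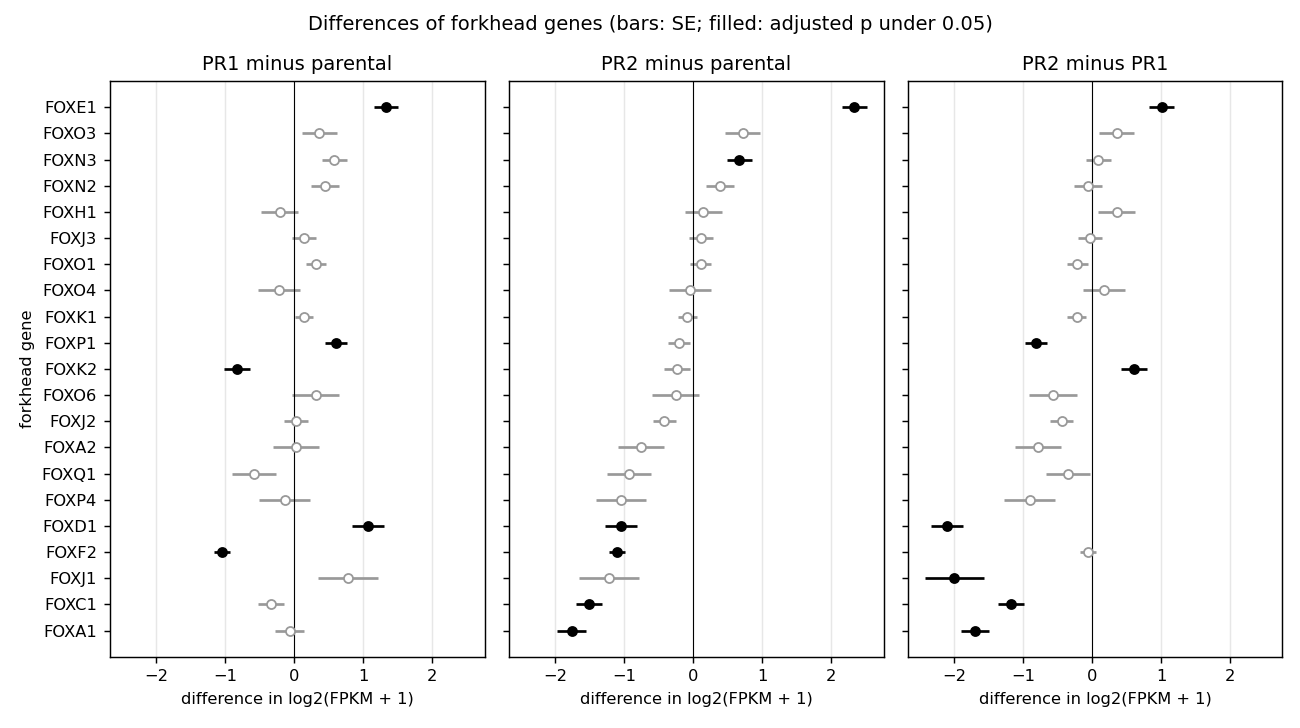
Differences in log2(FPKM + 1) of the 21 tested forkhead genes (rows) in the 3 comparisons (panels), with SE bars and filled points for an adjusted p under 0.05 in limma. FOXE1 lies to the right of 0 in all panels, and FOXD1 lies at 1.06 in PR1 and at -1.04 in PR2 against parental cells.

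Promoter sequence is shown for the 5 members whose calls against parental cells were the largest in size or in opposite directions. These are the 250 bases before the RefSeq start of each gene in GRCh38.p14, read 5′ to 3′ on the gene's strand. The expression files use an earlier build, so these coordinates are not theirs. They are FOXE1 at chr9:97852976-97853225 (forward strand), FOXD1 at chr5:73448778-73449027 (reverse strand), FOXA1 at chr14:37595250-37595499 (reverse strand), FOXC1 at chr6:1609665-1609914 (forward strand) and FOXF2 at chr6:1389326-1389575 (forward strand). Capitals mark matches on either strand to GGGCGG (SP and KLF factors), CCAAT (NF-Y) and GGAATG (TEAD).
FOXE1: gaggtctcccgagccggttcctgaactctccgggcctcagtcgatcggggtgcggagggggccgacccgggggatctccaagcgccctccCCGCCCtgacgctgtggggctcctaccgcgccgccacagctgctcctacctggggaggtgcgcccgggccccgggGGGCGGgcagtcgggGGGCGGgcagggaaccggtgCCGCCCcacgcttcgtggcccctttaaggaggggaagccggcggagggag
FOXD1: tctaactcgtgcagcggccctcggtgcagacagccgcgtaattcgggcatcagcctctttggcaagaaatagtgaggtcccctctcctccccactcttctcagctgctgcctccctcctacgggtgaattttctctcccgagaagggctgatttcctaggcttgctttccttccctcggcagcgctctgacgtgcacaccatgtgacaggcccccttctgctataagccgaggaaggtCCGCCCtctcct
FOXA1: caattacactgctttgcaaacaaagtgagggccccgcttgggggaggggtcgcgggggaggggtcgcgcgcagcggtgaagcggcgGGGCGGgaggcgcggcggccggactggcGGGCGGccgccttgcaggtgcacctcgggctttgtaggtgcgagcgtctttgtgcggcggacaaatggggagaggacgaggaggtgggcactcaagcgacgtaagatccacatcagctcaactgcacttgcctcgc
FOXC1: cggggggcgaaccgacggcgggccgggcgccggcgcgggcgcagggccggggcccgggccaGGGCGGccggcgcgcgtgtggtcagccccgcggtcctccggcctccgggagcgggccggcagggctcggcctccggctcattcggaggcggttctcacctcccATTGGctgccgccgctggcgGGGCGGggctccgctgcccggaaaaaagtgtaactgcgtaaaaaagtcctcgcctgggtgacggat
FOXF2: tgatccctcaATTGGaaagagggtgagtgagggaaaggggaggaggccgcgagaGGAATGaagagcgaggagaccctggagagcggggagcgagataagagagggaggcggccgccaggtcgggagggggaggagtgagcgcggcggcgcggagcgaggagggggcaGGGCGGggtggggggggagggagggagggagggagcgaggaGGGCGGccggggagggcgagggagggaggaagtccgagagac

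These stretches are rich in G and C, with 75.6% in FOXE1, 58.8% in FOXD1, 67.2% in FOXA1, 76.8% in FOXC1 and 70.8% in FOXF2. GGGCGG occurs in all 5, from 4 matches in FOXE1 to 1 in FOXD1. GGAATG occurs in FOXF2 alone among them, 196 bases before the start, and CCAAT in FOXC1 and FOXF2. RefSeq gave 44 promoters for 33 of the 43 members, including 8 of the 9 that changed (not FOXJ1). Their median G and C content was 67.4%, against 58.0% over all 35116 promoters of the same length. GGGCGG was found in 65.9% of them and in 42.6% of all, and GGAATG in 9.09% and 11.9%. The forkhead motif TGTTTAC was found in 2.27% and 2.98%, the AP-1 motif TGANTCA in 9.09% and 6.57%, the ETS motif CCGGAAG in 2.27% and 8.52%, CCAAT in 20.5% and 32.0%, and the TATA box TATAAA in 6.82% and 10.7%. All motifs were read on both strands, and the marked matches in the 5 sequences above do not overlap. A match is a run of letters and was not tested as a binding site.

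FOXE1 was the member with the largest rise. It stood at 2.78, 1.96 and 2.59 FPKM in parental A, B and C, at 6.58, 8.35 and 7.93 in PR1 and at 15.1, 20.3 and 14.005 in PR2. The groups did not overlap, and PR1 lay between the other two. The log2 difference was 1.33 ± 0.18 (SE) in PR1 and 2.34 ± 0.18 in PR2 against parental cells (limma adjusted p = 0.0011 and 1.9e-05). PR2 was above PR1 by 1.008 ± 0.18 (limma adjusted p = 0.0037). FOXE1 ranked 14, 19 and 17 of 43 by FPKM in the parental libraries, 10 in each PR1 library and 2, 2 and 3 in PR2. Its nearest coding neighbour with a tested row, XPA, a DNA repair gene, ranged from 7.98 to 12.6 FPKM and changed in no comparison (limma adjusted p of 0.54, 0.49 and 0.17).

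FOXD1, which is best known from kidney stroma and retina, moved in opposite directions in the derivatives. Its values were 13.9, 21.9 and 25.1 FPKM in parental cells, 47.6, 47.7 and 33.1 in PR1 and 10.7, 7.96 and 8.66 in PR2. Every PR1 library was above every parental library, and every PR2 library below. FOXD1 rose by 1.06 ± 0.23 in PR1 and fell by 1.04 ± 0.23 in PR2 on the log2 scale (limma adjusted p = 0.013 and 0.0097). The difference between PR2 and PR1 was -2.11 ± 0.23 (limma adjusted p = 0.00027). FOXD1 was the highest forkhead gene in PR1 A and B and the second in PR1 C, and it made up 22.9%, 19.8% and 14.4% of the summed forkhead FPKM there. In PR2 that share was 6.86%, 4.91% and 5.25%. The next gene, BTF3, a general transcription factor gene, was also lower in PR2 than in PR1 (log2 difference -0.66) and than in parental cells (-0.57, limma adjusted p = 0.026 and 0.042), and it did not pass in PR1 (0.09, limma adjusted p = 0.78).

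**Figure D2:**
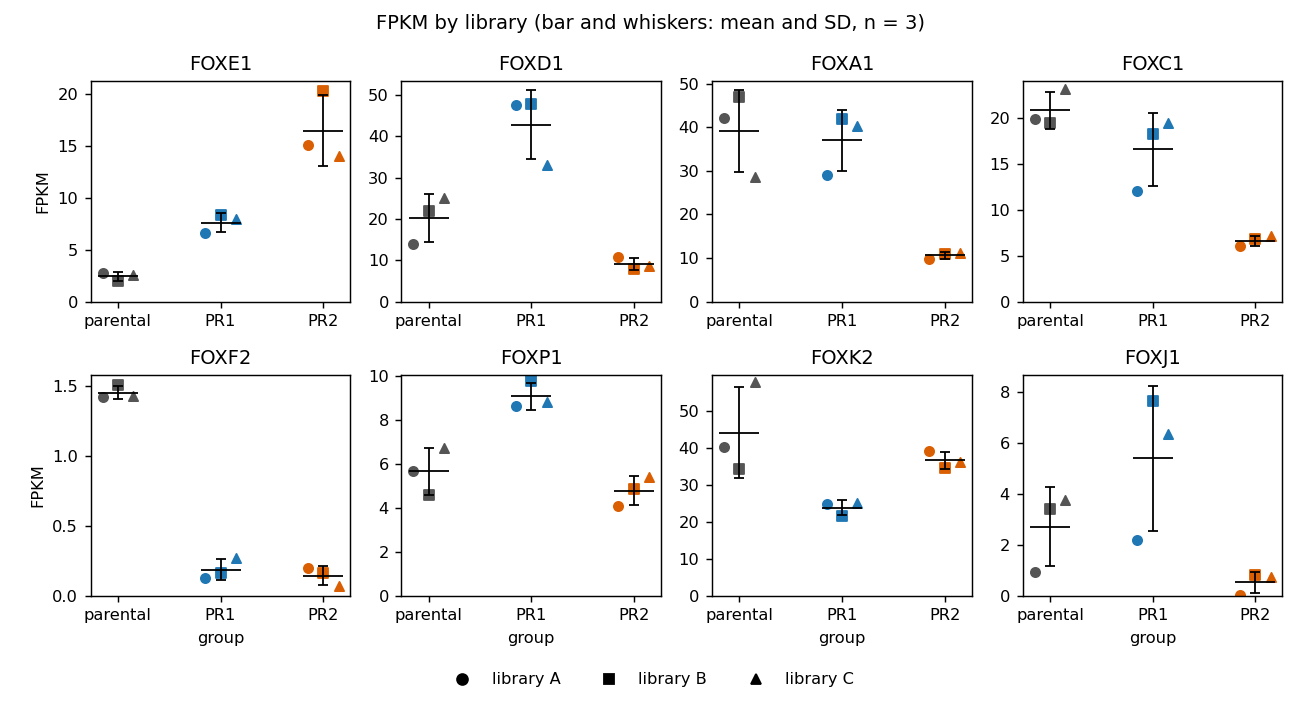
FPKM of 8 forkhead genes that changed, by group, with 1 marker per library (circle A, square B, triangle C) and the mean and SD of 3 libraries. FOXE1 steps up from parental to PR1 to PR2, FOXD1 and FOXP1 peak in PR1, FOXA1 and FOXC1 are low in PR2, FOXF2 is near 0 in both derivatives, FOXK2 is low in PR1, and FOXJ1 is low in library A of each group.

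FOXA1, the main FOXA gene here, was low in PR2. It stood at 42.1, 46.9 and 28.6 FPKM in parental cells, at 28.99, 41.8 and 40.3 in PR1 and at 9.79, 10.9 and 11.2 in PR2. Parental and PR1 libraries overlapped, and all PR2 libraries were below both. FOXA1 fell by 1.76 ± 0.21 against parental cells and was lower than in PR1 by 1.69 ± 0.21 on the log2 scale (limma adjusted p = 0.00028 and 0.00049). PR1 differed from parental cells by -0.07 (95% interval -0.53 to 0.39, limma adjusted p = 0.87). FOXA2, the partner of FOXA1 in lung development, was at 2.36, 4.46 and 9.35 FPKM in parental cells, 4.39, 5.51 and 4.72 in PR1 and 3.07, 2.26 and 1.97 in PR2. The parental libraries overlapped both other groups, and PR2 lay below PR1. The FOXA2 differences of -0.76 (PR2 against parental) and -0.78 (PR2 against PR1) missed the threshold, both at a limma adjusted p of 0.13. The first passed without parental A (-1.15, limma adjusted p = 0.014) and when all A libraries were dropped (-1.27, limma adjusted p = 0.017), and the second passed without parental A or parental C (limma adjusted p = 0.046 and 0.029). FOXA3 was not tested. It was at 0.538, 1.10 and 0.557 FPKM in parental cells, 0.935, 0.937 and 0.648 in PR1 and 0.0473, 0.137 and 0 in PR2, so it too was lowest in all PR2 libraries. FOXA1 made up 74.3% to 93.6% of the summed FOXA FPKM in every library, PR2 included.

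Genes that work with FOXA factors, or that they are known to bind in lung, were read from a list of 24, of which 16 were tested. SFTPB, AGR2 and MUC5B were already known from these data to move. In PR2 8 of the 16 fell and 4 rose against parental cells, where 9.83% of all tested rows were lower and 13.6% higher. The surfactant gene SFTPB was at 54.3, 144 and 40.6 FPKM in parental cells, 3.46, 6.01 and 5.0 in PR1 and 0.0207, 0.0352 and 0.0204 in PR2. The secretory protein gene AGR2 fell from 580 ± 134 to 43.7 ± 16.2 FPKM (SD, n = 3). KRT7 (log2 difference 1.14) and GATA6 (0.97), a lung endoderm factor, rose. In PR1 4 of 16 rose and 2 fell, against 7.56% and 7.98% of all tested rows. The rises included MUC5B (3.15) and NKX2-1 (0.90), and the falls were SFTPB (-3.60) and ESR1 (-0.63). Between PR2 and PR1 7 of 16 were lower and 3 higher, against 8.92% and 11.0% of all tested rows, and MUC5B (-4.77) and AGR2 (-4.46) were the lowest. CDH1, the epithelial cadherin gene, was between 54.5 and 113 FPKM in all libraries and changed in no comparison.

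FOXC1, FOXF2 and FOXQ1 lie beside each other among the coding genes of chromosome 6 that have a row, followed by GMDS, which encodes an enzyme of fucose synthesis. FOXC1, a factor of mesoderm and eye development, was at 19.9, 19.4 and 23.2 FPKM in parental cells, 12.0, 18.2 and 19.5 in PR1 and 6.03, 6.77 and 7.12 in PR2. All PR2 libraries were below all others, and parental and PR1 libraries overlapped. FOXC1 fell by 1.51 ± 0.19 in PR2 against parental cells and was lower than in PR1 by 1.18 ± 0.19 on the log2 scale (limma adjusted p = 0.00035 and 0.0020). FOXF2 was low in every group. Its values were 1.42, 1.503 and 1.42 FPKM in parental cells, 0.125, 0.165 and 0.267 in PR1 and 0.197, 0.163 and 0.0710 in PR2. The derivatives overlapped each other and lay below all parental libraries. Its log2 difference from parental cells was -1.05 ± 0.12 for PR1 (limma adjusted p = 0.00034) and -1.10 ± 0.12 for PR2 (limma adjusted p = 0.00013). FOXF2 passed the filter through the parental libraries alone, so a difference from the derivatives was built into its being tested. Between PR2 and PR1 it differed by -0.05 (95% interval -0.31 to 0.21, limma adjusted p = 0.80).

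FOXQ1, a factor often high in epithelial tumours, spread widely among the parental libraries, at 15.7, 8.02 and 22.5 FPKM, against 9.65, 8.39 and 9.42 in PR1 and 6.33, 5.39 and 9.84 in PR2. Parental B lay within the range of the derivatives. The FOXQ1 difference of -0.93 in PR2 missed the threshold (limma adjusted p = 0.059) and passed without parental B (-1.31, limma adjusted p = 0.0082), without PR2 C (-1.15, limma adjusted p = 0.049) and after quantile normalization (-1.03, limma adjusted p = 0.030). In PR1 it was -0.59 (limma adjusted p = 0.25), and -0.96 without parental B (limma adjusted p = 0.042). GMDS, the neighbour of FOXC1, stood at 54.8, 66.7 and 75.4 FPKM in parental cells, 53.6, 40.9 and 48.2 in PR1 and 34.1, 32.9 and 34.2 in PR2. It fell in PR2 (log2 difference -0.93, limma adjusted p = 0.0026) and missed the threshold in PR1 (-0.45, limma adjusted p = 0.089). The neighbours were looked up after the members' values were known. Beside called forkhead genes, 2 of 8 tested neighbours were called in the same direction in PR1 and 4 of 9 in PR2. In PR2 FOXC1 and FOXF2 count as each other's neighbour, and the fall of FOXF2 was built into its being tested. Of 10 tested between PR2 and PR1, 1 was called in the same direction and 1 in the opposite one. Of all tested rows 15.5% changed in PR1 (7.98% lower), 23.4% in PR2 (9.83% lower) and 19.9% between PR2 and PR1. A shared change of neighbours was not tested.

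FOXF1, a relative of FOXF2 at another locus, was not tested. It was at 0, 0.0183 and 0.0187 FPKM in parental cells, 0.0297, 0 and 0.0290 in PR1 and 0.0809, 0.281 and 0.293 in PR2, where all libraries were above the others. Of 14 hedgehog pathway genes, which act upstream of FOXF factors, 3 were tested. The receptor gene PTCH1 rose in PR2 (log2 difference 0.52) and the co-receptor gene CDON fell (-0.78). PTCH1 reached 1 FPKM in the derivatives alone, so a higher value than in parental cells was built into its being tested. SUFU, an inhibitor of the pathway, passed in no comparison, and the ligand genes SHH, IHH and DHH were at 0.41 FPKM or less in all libraries.

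FOXJ1 was lower in PR2 than in PR1. It stood at 0.936, 3.43 and 3.77 FPKM in parental cells, 2.19, 7.66 and 6.38 in PR1 and 0.0343, 0.802 and 0.731 in PR2. Library A was the lowest of each group, and every PR2 library was below every other library. The difference between PR2 and PR1 was -1.99 ± 0.43 on the log2 scale (limma adjusted p = 0.010). FOXJ1 reached 1 FPKM in 5 libraries, none of them PR2, so a lower value in PR2 was in part built into its being tested. The FOXJ1 differences of 0.77 in PR1 and -1.22 in PR2 against parental cells missed the threshold (limma adjusted p = 0.27 and 0.068). With the letter as a replicate block FOXJ1 passed in PR1 (limma adjusted p = 0.0078), as it did in PR2 (limma adjusted p = 0.00060), but for PR2 and LC2 the letters do not count as pairs. Without the 3 A libraries the differences were 0.80 and -1.38 (limma adjusted p = 0.014 and 0.0010), and PR2 passed without parental A or PR1 A as well (limma adjusted p = 0.019 and 0.035). The antisense gene RNF157-AS1 overlaps FOXJ1 and ranged from 0.0317 to 0.685 FPKM, with its lowest value in PR2 A too. EXOC7, the next coding gene, went the other way and was higher in PR2 than in PR1 (log2 difference 0.86, limma adjusted p = 0.0012).

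Of 25 genes of the motile cilium programme 10 were tested. Between PR2 and PR1 5 were lower and 1 was higher, where 8.92% of all tested rows were lower and 11.0% higher. Those lower were CCNO (log2 difference -1.69) and MCIDAS (-1.14), regulators of centriole amplification, CCDC78, RSPH1 and DNAH11, and the dynein gene DNAH5 was higher (0.54). MCIDAS was at 4.92, 5.86 and 6.21 FPKM in parental cells, 8.30, 12.0 and 9.15 in PR1 and 4.27, 3.97 and 3.34 in PR2. In PR1 against parental cells CCDC78 (0.97), CCNO (0.72) and MCIDAS rose, and CCDC40 fell (-1.34). In PR2 CCNO (-0.97), CCDC40 (-0.81), RSPH1 and DNAH11 fell and none rose. RSPH1 reached 1 FPKM in no PR2 library, so its lower value there was in part built into its being tested. Its calls are no support for the counts of PR2 against PR1 or parental cells. Axonemal genes differed in level. CCDC40 reached 5.08 FPKM, DNAH11 2.02, DNAH5 1.77 and RSPH1 1.36, whereas DNAI1 was at 0.13 FPKM or less, DNAH9 at 0.00212 or less, and DNAI2 was listed at 0 throughout.

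**Figure D3:**
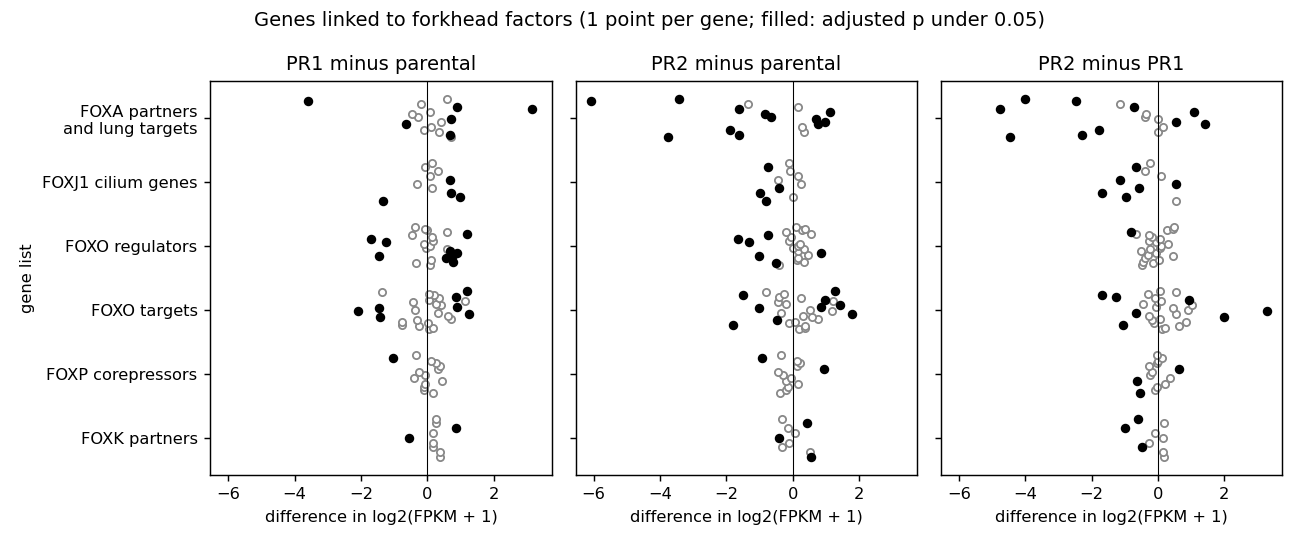
Differences in log2(FPKM + 1) of tested genes linked to forkhead factors, 1 point per gene and 1 row per gene list, filled for an adjusted p under 0.05 in limma. SFTPB lies farthest left, at -3.60 in PR1 and -6.08 in PR2 against parental cells, and the filled points of the FOXP and FOXK partner lists lie between -1.04 and 0.95.

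FOXP1 was high in PR1. Its values were 5.69, 4.602 and 6.72 FPKM in parental cells, 8.64, 9.77 and 8.84 in PR1 and 4.08, 4.86 and 5.405 in PR2. All PR1 libraries were above all others, and parental and PR2 libraries overlapped. FOXP1 was lower in PR2 than in PR1 by 0.81 ± 0.16 on the log2 scale (limma adjusted p = 0.0068). The rise of 0.61 ± 0.16 in PR1 (limma adjusted p = 0.030) was lost without any of 6 single libraries (parental A or B, PR1 A, B or C, or PR2 B), at a limma adjusted p of up to 0.10. FOXP4 was at 0.830, 3.64 and 2.19 FPKM in parental cells, 2.10, 2.40 and 0.913 in PR1 and 0, 0.517 and 1.04 in PR2. The FOXP4 difference of -1.04 in PR2 missed the threshold (limma adjusted p = 0.066) and passed without parental A (-1.40, limma adjusted p = 0.017) and when all A libraries were dropped (-1.13, limma adjusted p = 0.035). FOXP4 was at 0 in 1 library, PR2 A, and whether this value is a failed estimate was not tested. In these data 6 genes that most cells express, TUBB and HLA-E among them, are at 0 in all libraries, a pattern that FOXP4 does not share. FOXP2 and FOXP3, not tested, reached at most 0.236 and 0.132 FPKM. Of 14 tested FOXP corepressor genes the transducin-like gene TBL1X fell in PR1 (-1.04) and PR2 (-0.93), and NCOR1 rose in PR2 (0.95). Between PR2 and PR1 HDAC1 (-0.63) and CTBP1 (-0.56) were lower and NCOR1 was higher (0.63). Of all tested rows 7.98% fell in PR1, and 13.6% rose and 9.83% fell in PR2. Between PR2 and PR1 8.92% of them were lower and 11.0% higher.

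FOXK2 ranked 2, 2 and 1 of 43 in parental cells and 1 in all PR2 libraries. It stood at 40.3, 34.3 and 57.9 FPKM in parental cells, 25.0, 21.5 and 25.1 in PR1 and 39.1, 34.7 and 36.2 in PR2. PR1 lay below both other groups, which overlapped. FOXK2 fell by 0.83 ± 0.19 in PR1 on the log2 scale (limma adjusted p = 0.015), a call lost without PR1 B (-0.76, limma adjusted p = 0.056). It was 0.60 ± 0.19 higher in PR2 than in PR1 (limma adjusted p = 0.049), a call lost in 7 of the 9 fits that left out 1 library, kept only without parental B or parental C, and lost without the 3 A libraries (limma adjusted p = 0.14), with no filter (limma adjusted p = 0.064) and with a filter of 5 FPKM (limma adjusted p = 0.054). It was called in 5 of 15 settings. WDR45B overlaps FOXK2 on the other strand, and the labels do not say whether reads were assigned by strand, so reads of the overlap cannot be told apart. WDR45B fell in PR1 too, by 0.97 on the log2 scale (limma adjusted p = 0.0039), as did NARF, on the other side of FOXK2, by 0.78 (limma adjusted p = 0.015). FOXK1 was even across groups, at 8.63 ± 0.38, 9.66 ± 1.12 and 8.09 ± 0.13 FPKM in parental cells, PR1 and PR2 (SD, n = 3), and its largest difference was -0.22 between PR2 and PR1 (95% interval -0.52 to 0.07). Of 9 tested FOXK partner genes 1 rose and 1 fell in PR1, SAP30 (0.86) and DVL3 (-0.55), where 7.56% of all tested rows rose and 7.98% fell. In PR2 ASXL1 (0.56) and SIN3B (0.43) rose and DVL3 fell (-0.41), against 13.6% and 9.83% of all tested rows. Between PR2 and PR1 3 were lower, SAP30 (-1.01) among them, and 0 higher, against 8.92% and 11.0% of all tested rows.

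No FOXO gene passed the threshold with all 9 libraries and no replicate block. FOXO3, the most abundant, was at 9.03, 6.21 and 12.2 FPKM in parental cells, 9.13, 11.8 and 14.5 in PR1 and 12.0, 15.2 and 19.1 in PR2, with overlap between all groups. Its difference of 0.72 ± 0.25 in PR2 against parental cells missed the threshold (limma adjusted p = 0.068) and passed without parental C (0.93, limma adjusted p = 0.037) or PR2 A (0.87, limma adjusted p = 0.046). FOXO3B, a near copy of FOXO3, has no row of its own, so reads may be shared. FOXO1 was at 2.29, 1.62 and 2.34 FPKM in parental cells, 2.47, 2.78 and 3.24 in PR1 and 2.51, 2.28 and 2.12 in PR2. Its difference was 0.32 in PR1 (95% interval -0.01 to 0.65) and 0.11 in PR2 (-0.22 to 0.44). FOXO4 and FOXO6 ranged from 0.994 to 3.62 and from 1.73 to 7.92 FPKM. Both were lowest in library A and highest in library B of every group. FOXO6 was at 3.48, 7.92 and 3.76 FPKM in PR1 and at 1.73, 5.14 and 2.51 in PR2, lower in PR2 for each letter though the groups overlap. Its difference of -0.56 between PR2 and PR1 (limma adjusted p = 0.29) passed with the block (limma adjusted p = 0.038). FOXO proteins are controlled mainly by phosphorylation, which was not measured.

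Among 23 tested regulators of FOXO proteins, 6 rose and 3 fell in PR1, where 7.56% of all tested rows rose and 7.98% fell. In PR2 1 rose and 5 fell, against 13.6% and 9.83% of all tested rows. SGK1, a kinase that phosphorylates FOXO proteins, fell from 31.6 ± 9.53 FPKM in parental cells to 8.78 ± 0.85 in PR1 and 9.35 ± 3.04 in PR2 (SD, n = 3). The insulin receptor gene INSR fell in PR1 and PR2 (log2 differences -1.47 and -1.014), and so did PIK3R1, a regulatory subunit of PI3 kinase (-1.24 and -1.32). SKP2 (1.20) and IRS2 (0.90) rose in PR1 and IRS2 (0.84) in PR2. Only USP7 (-0.81) of the 23 differed between PR2 and PR1, where 19.9% of all tested rows did. Of 27 tested FOXO target genes 4 rose and 3 fell in PR1 (7.56% and 7.98% of all tested rows), and 5 rose and 4 fell in PR2 (13.6% and 9.83%). Between PR2 and PR1 3 were higher and 4 lower (11.0% and 8.92%). Several of these shares lie near those of all rows. CITED2 (1.27 and 1.80) and TXNIP (1.19 and 1.26) rose in PR1 and PR2. FBXO32 (-2.09), INSR and CDKN1A (-1.41) fell in PR1, and BCL6 (-1.81) and SESN3 (-1.50) in PR2. FBXO32 (3.28) and CDKN1A (2.0) were higher in PR2 than in PR1, and SESN3 (-1.69) and SESN1 (-1.28) were lower. SESN3 reached 1 FPKM in no PR2 library, so its lower value there was in part built into its being tested.

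FOXN3, a repressor tied to cell cycle checkpoints, rose in PR2. It was at 4.10, 3.26 and 4.56 FPKM in parental cells, 5.26, 6.91 and 7.12 in PR1 and 5.596, 7.06 and 8.11 in PR2. Both derivatives lay above all parental libraries and overlapped each other. The difference was 0.67 ± 0.18 in PR2 (limma adjusted p = 0.022), lost on leaving out parental B, PR2 B or PR2 C (the highest limma adjusted p was 0.098). In PR1 it was 0.58 ± 0.18 (limma adjusted p = 0.054), and it passed with the replicate block (limma adjusted p = 0.019), without PR1 A or PR2 A (both 0.043) and when all A libraries were dropped (0.036). The antisense gene FOXN3-AS1, at 0.898 to 2.97 FPKM, passed in no comparison. FOXN2, its relative, was at 2.71 ± 0.64, 4.09 ± 1.18 and 3.82 ± 0.58 FPKM in parental cells, PR1 and PR2 (SD, n = 3) and did not pass (0.45 in PR1, limma adjusted p = 0.17, and 0.041 with the block).

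The remaining tested members, FOXJ2, FOXJ3 and FOXH1, passed in no comparison with neither the block nor quantile normalization. FOXJ3 was at 8.66 to 14.3 FPKM over the 9 libraries with a median of 11.1. FOXJ2 was at 5.44 ± 1.28, 5.49 ± 0.69 and 3.77 ± 0.40 FPKM in parental cells, PR1 and PR2 (SD, n = 3), and its difference between PR2 and PR1 (-0.44, limma adjusted p = 0.10) passed with the block (limma adjusted p = 0.041). That between PR2 and parental cells (-0.42, limma adjusted p = 0.11) passed after quantile normalization (-0.53, limma adjusted p = 0.037) and with the block (limma adjusted p = 0.047). The letters do not count as pairs in that comparison. FOXH1, a partner of SMAD proteins in early embryos, was at 3.12 to 8.18 FPKM. It overlaps the kinesin gene KIFC2 on the other strand, which stood at 9.26 to 31.7 FPKM. Both were lowest in library C of each group.

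**Figure D4:**
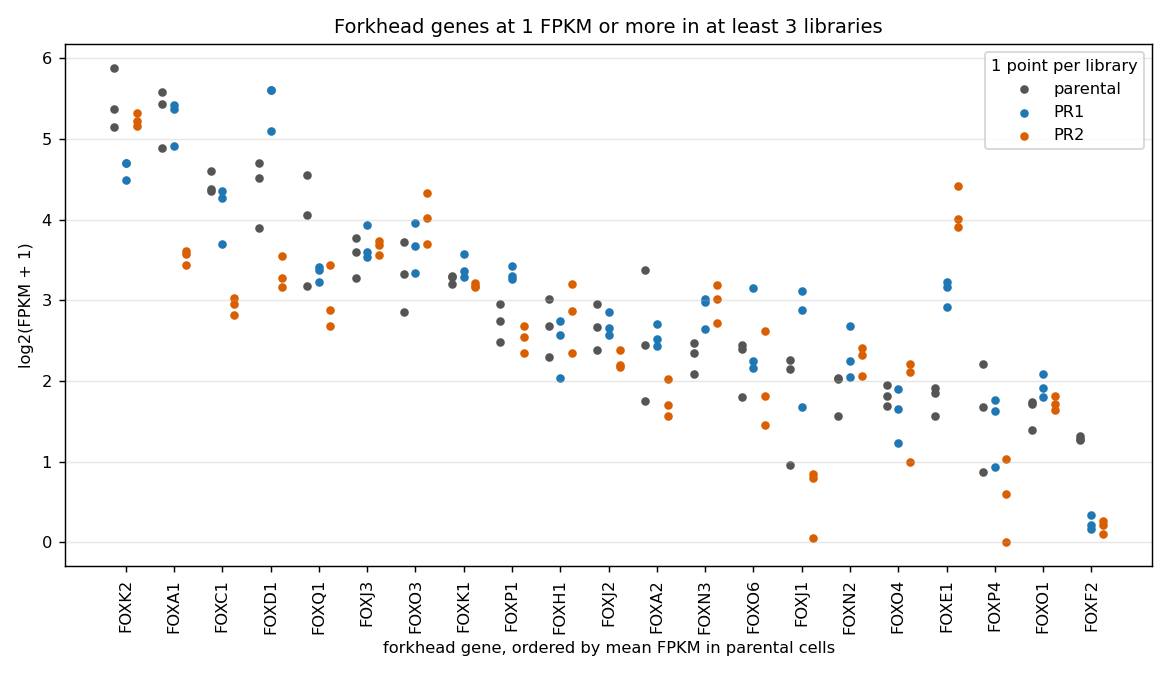
log2(FPKM + 1) of the 21 tested forkhead genes in 9 libraries, 1 point per library, coloured by group and ordered by the parental mean. FOXK2 and FOXA1 lead in parental cells, and FOXE1 and FOXF2 are among the lowest there, at 2.44 ± 0.43 and 1.45 ± 0.05 FPKM (SD, n = 3).

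The summed FPKM of the 43 members was 218 ± 25.3 in parental cells, 226 ± 16.6 in PR1 and 161 ± 4.81 in PR2 (SD, n = 3), a description with no test. All PR2 libraries (156 to 165) were below all others (203 to 247). The leading member was FOXA1 in parental A and B and in PR1 C, FOXK2 in parental C and all PR2 libraries, and FOXD1 in PR1 A and B. FOXA1 made up 11.6% to 23.1% of the sum in parental cells, 13.9% to 17.5% in PR1 and 6.29% to 6.80% in PR2. FOXE1 made up 0.962% to 1.37% in parental cells, 3.16% to 3.48% in PR1 and 8.49% to 12.6% in PR2.

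**Figure D5:**
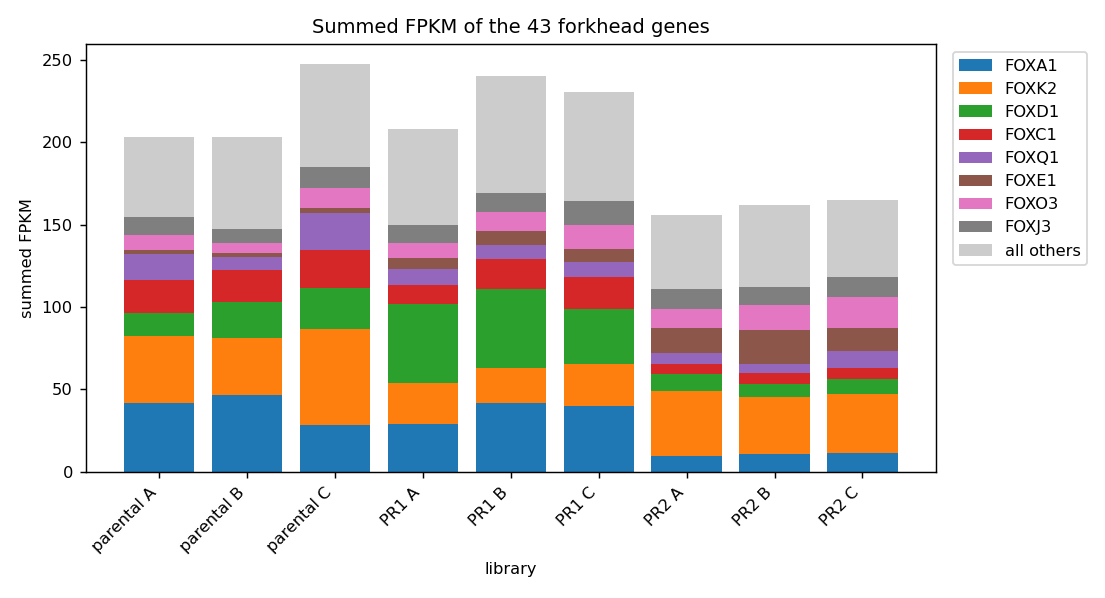
Summed FPKM of the 43 forkhead genes in each library, split by the 8 named genes and all others. The bars of PR2 reach 156 to 165 and those of the other libraries 203 to 247, and the FOXA1 segment is thinner and the FOXE1 segment thicker in PR2.

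Of the 22 members that were not tested, FOXB2, FOXI2 and FOXR2 were listed at 0 in all libraries. FOXA3 and FOXL1 reached 1 FPKM in 1 library each. FOXL1, which marks mesenchyme of the gut, was at 2.68 FPKM in PR1 A and at 0.163 to 0.661 in the other 8 libraries. The other 17 stayed under 1 FPKM, with FOXB1 in parental B (0.992) the highest. FOXB1 was at 0.462, 0.992 and 0.962 FPKM in parental cells and at 0.103 to 0.356 in the derivatives, and FOXI3 at 0.657, 0.232 and 0.465 in parental cells and at 0.0171 to 0.192 in the derivatives. FOXD4 has near-identical copies (FOXD4L genes), so its 0.311 to 0.776 FPKM may hold reads of those. With no filter on low values 40 members could be tested, and 3 of those under the filter were called in PR1 (FOXB1, FOXI3 and FOXL2, all lower). In PR2 5 were called, FOXF1 higher and FOXA3, FOXB1, FOXI3 and FOXL2 lower, and FOXA3 (lower) and FOXF1 (higher) were called between PR2 and PR1. Over all 40 members 8 were called in PR1, 11 in PR2 and 8 between PR2 and PR1. Over all rows 2344, 3550 and 2587 were called, out of the 24069 less the 5378 at 0 in all libraries. The values of members under the filter rest on few fragments. In GENCODE 29, 16 of the 43 members have a single coding exon. They are 12 of the 22 not tested, 3 of the 9 that changed (FOXC1, FOXD1 and FOXE1) and 1 of the 12 tested that did not (FOXQ1).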

How the data were processed

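Libraries were prepared by the TruSeq RNA method, per the labels' protocols. Per the submitters' processing notes, the build was GRCh37 (hg19) and the tools included Cuffdiff 2.2.1, TopHat2 2.0.14 and Cufflinks 2.2.1. The authors deposited 1 table of FPKM values with 24069 rows, a unit inferred from Cufflinks because the header names none. Annotation, strand setting and depth are not given there, and 5378 rows are at 0 in all libraries.

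Values were analysed as log2(FPKM + 1) with limma 3.58.1 in R 4.3.3, with 1 mean per group over all 9 libraries and an intensity trend, two-sided, with Benjamini-Hochberg adjustment over 12011 rows. The fit was tested on simulated data. The members and lists were chosen with earlier results of these data known. All tested members were named, and from each list up to 2 leading rises and falls per comparison, with further members added after their values were seen. Alternatives were a pseudocount of 0.1, no filter, a filter of 5 FPKM, quantile normalization, each library left out, the 3 A libraries left out (with the tested rows kept), and the letter as a replicate block. Deviations of same-lettered libraries correlated at 0.31, 0.48 and 0.16 (A, B, C) in PR1 and parental cells and at 0.53, 0.54 and 0.25 in PR2 and PR1. The letters were used as pairs in the fit with the block alone. The main fit had no letter term, so its calls leave this pairing out. The same-letter correlations of PR2 with LC2 were 0.30, 0.42 and 0.014 (A, B, C). The lowest value accepted for pairing was 0.1. C alone fell under it, and by this rule the letters do not count as pairs in that comparison. Promoters and neighbours came from RefSeq (GRCh38.p14), and overlapping genes and exons from GENCODE 29.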

Additional observations from a re-analysis of the deposited data

Results flagged for a closer look

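The derivatives differed from each other by a direct test in 7 forkhead genes, and the log2 difference of PR2 from PR1 (limma, adjusted over all tested rows) is given for each. FOXE1 (1.008) and FOXK2 (0.60) were higher in PR2. FOXA1 (-1.69), FOXC1 (-1.18), FOXD1 (-2.11), FOXJ1 (-1.99) and FOXP1 (-0.81) were lower in PR2. FOXJ1 reached 1 FPKM in no PR2 library, so its call was in part built into its being tested. FOXD1 passed against parental cells in both derivatives with opposite signs. Both comparisons with parental cells use the same 3 parental libraries. Groups of 3 are too small for a check of single outlying libraries.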

How the results depend on the processing

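Of 18 calls of forkhead genes over the 3 comparisons, 14 were kept under all alternatives that gave a value, and no called value changed sign. The others were FOXK2 and FOXP1 in PR1, FOXN3 in PR2 and FOXK2 between PR2 and PR1. The 14 include FOXF2 in PR1 and PR2 and FOXJ1 between PR2 and PR1. Those differences were built, for FOXJ1 in part, into the genes being tested, so their being kept is no support. With no filter on low values the members called rose from 5 to 8 in PR1 and from 6 to 11 in PR2, as 40 members could then be tested. All rows called rose to 2344 and 3550. With the replicate block 8 of 21 were called in PR1, 11 in PR2 and 9 between PR2 and PR1 (5, 6 and 7 without it), while all rows called rose to 3088, 4113 and 3789. For PR2 and parental cells the letters do not count as pairs. Leaving out 1 library gave 3 to 6 in PR1, the lowest without PR1 B. All tested rows called without single libraries fell as low as 1141 in PR1 (PR1 C), 1805 in PR2 (PR2 C) and 1420 between them (PR2 C). The 5 FPKM filter removed FOXF2 and FOXJ1.

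Differences that missed the threshold changed sign in 32 cases, and the cause was not tested. With 1 library left out, differences in PR1 ran from -0.27 to 0.095 for FOXA1, -0.36 to 0.45 for FOXA2, -0.12 to 0.17 for FOXJ2, -0.0071 to 0.49 for FOXO6 and -0.50 to 0.17 for FOXP4. In PR2 against parental cells they ran from -0.053 to 0.37 for FOXH1, -0.027 to 0.22 for FOXJ3, -0.0074 to 0.17 for FOXO1, -0.27 to 0.34 for FOXO4 and -0.58 to 0.00096 for FOXO6. Between PR2 and PR1 they ran from -0.11 to 0.10 for FOXJ3, -0.20 to 0.12 for FOXN2, -0.029 to 0.22 for FOXN3 and -0.045 to 0.56 for FOXO4. Without the 3 A libraries FOXA1 (0.16) and FOXA2 (-0.30) in PR1 and FOXH1 (-0.046) and FOXO4 (0.28) in PR2 changed sign. After quantile normalization FOXA2 (-0.010) and FOXJ2 (-0.025) in PR1 and FOXF2 (0.038) between PR2 and PR1 did. Members under 1 FPKM rest on few fragments, and a difference among them was often not detectable.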
